A study of Homo sapiens with 4 samples.

Results

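The genes described here are the small nucleolar RNA (snoRNA) host genes of the SNHG series with GAS5, and the numbered LINC genes, in TU-177 cells with and without knockdown of SKA3. Members were chosen by symbol and by mean expression: the table rows whose gene symbol is SNHG or LINC followed by a number, or GAS5, and whose mean FPKM over the 4 libraries was at least 1. FPKM counts fragments relative to both the exon length of a gene and the depth of its library. These rules gave 21 SNHG and GAS5 genes and 123 LINC genes, 144 of the 28729 genes in the table. The symbol rule alone found 27 and 751 rows, so most LINC rows were too low to be used. Just outside the expression limit stood LINC00630 (mean FPKM 0.998), LINC00324 (0.994) and LINC00431 (0.985), and just inside it LINC02816 (1.01), LINC00689 (1.01) and LINC02904 (1.02).

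TU-177 is an established human line from laryngeal squamous cell carcinoma (LSCC). The NC libraries came from cells given a lentivirus with a negative control shRNA and the SKA3-KD libraries from cells given one with an shRNA against SKA3. Puromycin was added to all cells 48 hours after transduction, so both groups are resistant populations, with 2 libraries (replicates 1 and 2) in each. Nothing states that the libraries came from separate cultures, so p-values measure only the spread between these samples, which may be technical. SKA3 encodes a subunit of the complex that holds kinetochores on spindle microtubules. Its FPKM was 9.40 and 9.64 in the NC libraries and 3.77 and 4.12 in the SKA3-KD libraries (replicates 1 and 2 in this order here and for all pairs of values), a log2 fold change of -1.09 (SE 0.07, limma with Benjamini-Hochberg adjustment, adjusted p = 0.00806). SKA3-KD cells held 41.4% of the NC level of the targeted RNA. Without NC 1 or NC 2 the limma adjusted p of SKA3 was 0.0660 or 0.0600, and without SKA3-KD 1 or SKA3-KD 2 it was 0.0468 or 0.0312.

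Library sizes, estimated from the step size of the low FPKM values, ran from 9015056 to 11966130 reads. The reads recovered on genes summed to more than the library size in all 4 libraries (12280501 against 11966130 in NC 1). The cause was not tested, so library sizes and recovered reads are estimates. Among squamous markers, SFN, DSP, KRT17, LAMB3 and ITGB4 were expressed. ITGB4 was higher in SKA3-KD cells (log2 fold change 1.08, limma adjusted p = 0.0140) and KRT17 lower (-0.53, limma adjusted p = 0.0396), and their part in the results was not tested. By contrast, the keratins KRT5, KRT14 and KRT6A were at or near 0 in every library and TP63 was at 0.35 to 0.58 FPKM. Of the 5 fibroblast markers, 4 were rows and 2 (COL1A1 and DCN) reached a mean FPKM of 1. Their summed FPKM was 12.5 and 13.3 in the NC libraries and 5.67 and 5.43 in the SKA3-KD libraries, mostly through DCN, and the part of this difference in the results below was not tested. No marker of the 4 endothelial or 5 haematopoietic ones reached a mean FPKM of 1, and LYZ was listed at 0. In bulk RNA, fewer cells of a type and less RNA per cell cannot be told apart.

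Host genes carry snoRNAs in their introns. After splicing, the introns are trimmed to snoRNAs that guide the chemical modification of ribosomal and spliceosomal RNA: box C/D snoRNAs direct ribose methylation and box H/ACA snoRNAs direct pseudouridylation. The joined exons of an SNHG transcript seldom encode a protein, and in several of them, GAS5 included, they are removed by nonsense-mediated decay, which acts on RNAs under translation. Several also begin with a 5′ terminal oligopyrimidine (TOP) tract, the start that ribosomal protein mRNAs use to couple their translation to the mTOR pathway. LINC is a naming class and not a family: it stands for long intergenic noncoding RNAs that share no sequence or known function.

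The starts of the host genes were read from the RefSeq promoter sequences (GRCh38.p14), which held 17 of the 21 host genes. A TOP start was searched on the sense strand as a C at the annotated first base followed by at least 4 bases that were each C or T. It was present in 4 of the 17, or 23.5%: SNHG19, SNHG32, SNHG5 and SNHG12. The same letters stood at the first base of 4.04% of all RefSeq promoters, 5.62% of the genes tested, 3.53% of the 85 LINC genes with a sequence and 66.7% of 66 cytosolic ribosomal protein genes. With the tract allowed to begin within 10 bases of the annotated start, the shares were 64.7% of the host genes, 33.5% of the genes tested, 35.3% of the LINC genes and 86.4% of the ribosomal protein genes. The 4 starts are printed with those of SNHG1, SNHG29 and GAS5, host genes that are lower in SKA3-KD cells and lack the tract at the annotated base. Each line covers 30 bases before the start and 30 bases from it on the sense strand, and capitals mark the pyrimidine tract at the first base.
SNHG19 (chr16:2155329-2155388, minus strand): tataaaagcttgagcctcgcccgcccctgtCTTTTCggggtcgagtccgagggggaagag
SNHG32 (chr6:31834886-31834945, plus strand): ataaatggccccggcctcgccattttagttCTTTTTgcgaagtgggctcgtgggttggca
SNHG5 (chr6:85678704-85678763, minus strand): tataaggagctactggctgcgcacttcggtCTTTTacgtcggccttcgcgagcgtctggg
SNHG12 (chr1:28581844-28581903, minus strand): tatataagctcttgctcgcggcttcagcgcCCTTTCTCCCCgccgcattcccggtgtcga
SNHG1 (chr11:62855856-62855915, minus strand): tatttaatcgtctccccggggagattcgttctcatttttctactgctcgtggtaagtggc
SNHG29 (chr17:16438957-16439016, plus strand): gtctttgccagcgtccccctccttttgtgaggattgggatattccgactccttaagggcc
GAS5 (chr1:173869016-173869075, minus strand): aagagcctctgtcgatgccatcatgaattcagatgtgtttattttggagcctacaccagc
A match describes the letters at an annotated start, and a missing match says only that they are not at that base. The GENCODE 29 gene starts of SNHG32 (31834608), SNHG12 (28583132), SNHG29 (16438822) and GAS5 (173868882) lie outside these windows. Those of SNHG5 (85678748) and SNHG1 (62855914) lie inside their windows but not at the RefSeq first base. The 2 annotations therefore disagree on all of these starts, and among the printed genes only SNHG19 (2155358) has the same start in both.

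Most host genes had lower values in SKA3-KD cells. Of 21, 19 had a log2 fold change below 0, against 48.4% of all genes tested, and 7 passed the limma test (adjusted p under 0.05 over 12645 genes) as lower. Among all genes tested, 6.11% were called lower and 6.16% higher. No host gene was called higher, and none was higher at an unadjusted p under 0.05 or by limma voom on the recovered reads, which called 10 lower (12.6% of all genes by that test). Without the filter on low values limma called 0 host genes, and without the mean-variance trend it called 1, SNHG1. The median log2 fold change was -0.29 over the host genes and 0.01 over all genes tested. In 17 of the 21, both SKA3-KD libraries lay below both NC libraries, beside 29.2% of all genes tested, and in 0 above. Against the NC mean, the medians of the 2 SKA3-KD libraries were -0.20 and -0.31, and the 2 NC libraries differed by a median of -0.03. In reads, the 21 genes together took 1451 and 1419 reads per 1000000 in NC, against 1189 and 1116 in SKA3-KD. The SKA3-KD mean (1152 ± 51.6, SD, n = 2) was 80.3% of the NC mean (1435 ± 22.4, SD, n = 2). With any 1 library left out, limma called 0 of the host genes, while it called 0 genes lower in the whole table without NC 1 or NC 2, 53 without SKA3-KD 1 and 135 without SKA3-KD 2.

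**Figure D1:**
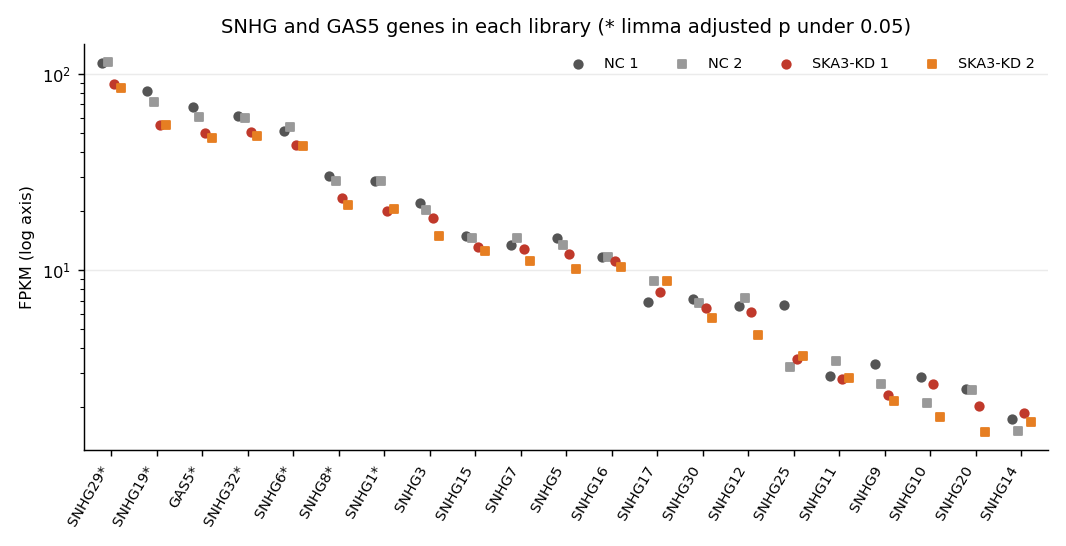
FPKM (log axis) of the 21 SNHG and GAS5 genes, ordered by mean, with 1 point for each library (grey NC, red and orange SKA3-KD) and an asterisk at the 7 genes with an adjusted p under 0.05 in limma. In each of the 12 genes whose mean was 10 FPKM or more, both SKA3-KD points lie below both NC points.

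The 7 genes called lower were also the 7 most abundant. SNHG29, which holds SNORD49A, SNORD49B and SNORD65, was the highest host gene, at 114 and 115 FPKM in NC and 89.4 and 85.0 in SKA3-KD (log2 fold change -0.39, SE 0.06, limma adjusted p = 0.0218). SNHG19, the host of SNORD60, was at 82.3 and 72.0 in NC and 55.2 and 55.0 in SKA3-KD (-0.48, SE 0.08, limma adjusted p = 0.0282). The groups did not overlap for either gene.

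GAS5, named for its rise in growth-arrested cells, carries 11 annotated snoRNAs by RefSeq position, 10 of them box C/D. It measured 67.7 and 60.3 FPKM in NC and 50.2 and 47.3 in SKA3-KD (log2 fold change -0.38, SE 0.08, limma adjusted p = 0.0410), so SKA3-KD cells had 76.2% of the NC level. SNHG1, the host of SNORD22 and 7 further box C/D snoRNAs, had the largest change and the lowest adjusted p of the 21, from 28.6 in each NC library to 19.95 and 20.5 in SKA3-KD (-0.48, SE 0.06, limma adjusted p = 0.0152). The gap between its groups was wider than the spread inside either group.

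SNHG32, the host of SNORD48 and SNORD52, lies in the major histocompatibility region and is annotated as protein-coding in GENCODE 29. Its FPKM was 60.8 and 59.9 in NC and 50.5 and 48.5 in SKA3-KD (log2 fold change -0.28, SE 0.06, limma adjusted p = 0.0393). SNHG6, which holds SNORD87, was at 51.3 and 54.0 against 43.6 and 43.1 (-0.27, SE 0.06, limma adjusted p = 0.0449). SNHG8, the host of the box H/ACA snoRNA SNORA24, was at 30.1 and 28.6 against 23.2 and 21.6 (-0.37, SE 0.07, limma adjusted p = 0.0330). These 3 genes again showed no overlap between groups, and their SKA3-KD means were 82.1%, 82.3% and 76.4% of the NC means.

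A further 5 host genes had a mean FPKM between 11.2 and 18.9, and all had both SKA3-KD libraries below both NC libraries without passing the test. SNHG3, the host of SNORA73A and SNORA73B (the U17 snoRNAs, which act in ribosomal RNA cleavage), was at 21.9 and 20.3 FPKM in NC and 18.5 and 15.0 in SKA3-KD (log2 fold change -0.32, SE 0.11, limma adjusted p = 0.124), and voom called it lower (adjusted p = 0.00718). SNHG5, with SNORD50A and SNORD50B, was at 14.7 and 13.4 against 12.1 and 10.1 (-0.31, SE 0.10, limma adjusted p = 0.111), and voom again called it (adjusted p = 0.0276). In both genes SKA3-KD 2 was the lowest library. SNHG15 (SNORA9), SNHG7 (SNORA17A and SNORA17B) and SNHG16 (SNORD1A to SNORD1C) had log2 fold changes of -0.18, -0.21 and -0.11, with limma adjusted p-values of 0.125, 0.196 and 0.339. SNHG16, at 11.6 and 11.7 FPKM in NC and 11.1 and 10.4 in SKA3-KD, had the smallest difference among the abundant host genes.

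The remaining 9 host genes had a mean FPKM under 10 and none passed the limma test at an adjusted or an unadjusted p under 0.05. SNHG12, with 4 snoRNAs of both classes, was at 6.56 and 7.23 FPKM in NC and 6.11 and 4.70 in SKA3-KD (log2 fold change -0.31, SE 0.13, limma adjusted p = 0.174) and was the only one of them called by voom (adjusted p = 0.0483). SNHG20 and SNHG10 hold SCARNA16 and SCARNA13, relatives of snoRNAs that guide modification of spliceosomal RNA in Cajal bodies. SNHG20 was at 2.47 and 2.46 against 2.02 and 1.498 (-0.33, SE 0.14), while the groups of SNHG10 overlapped, at 2.84 and 2.11 against 2.63 and 1.79 (-0.12, SE 0.18). SNHG30 (SNORD7), SNHG11 (SNORA60 and SNORA71E) and SNHG9 (SNORA78) had log2 fold changes of -0.18, -0.13 and -0.29, each with both SKA3-KD libraries below both NC libraries. SNHG9 rests on only 13 to 22 reads a library.

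SNHG17, SNHG14, SNHG25 and SNHG10 were the host genes whose groups overlapped. SNHG17, which carries SNORA71A to SNORA71D, was at 6.85 and 8.85 FPKM in NC and 7.75 and 8.77 in SKA3-KD (log2 fold change 0.07, SE 0.13, limma adjusted p = 0.750). SNHG14, the imprinted transcript of the Prader-Willi region, holds 83 of the 135 snoRNAs of the host genes, the SNORD115 and SNORD116 clusters among them, and was at 1.75 and 1.51 in NC and 1.87 and 1.69 in SKA3-KD (0.08, SE 0.13, limma adjusted p = 0.713). They were the 2 host genes with a value above 0. SNHG25, the host of SNORD104, was at 6.61 and 3.19 in NC and 3.53 and 3.66 in SKA3-KD (-0.30, SE 0.28), with 8 to 22 reads a library, and without NC 1 its value was 0.13.

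Of the 12 host genes at a mean of 10 FPKM or more, 7 were called, and of the 9 below it, 0. The medians of the log2 fold change were -0.32 and -0.18, and those of the mean reads 642 and 89. Over all genes tested 6.11% were called lower, and their shares at these 2 levels were not computed. The log2(FPKM + 1) scale also understates changes of low genes. SNHG19 and SNHG20 were both at 71.4% of the NC mean, with log2 fold changes of -0.48 and -0.33. Between neighbours in the order of levels, SNHG29 stood above SNHG19, SNHG19 above GAS5, and SNHG32 above SNHG6 in all 4 libraries, while GAS5 and SNHG32 changed places between libraries, as did all neighbours from SNHG17 downwards and those from SNHG15 to SNHG16.

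**Figure D2:**
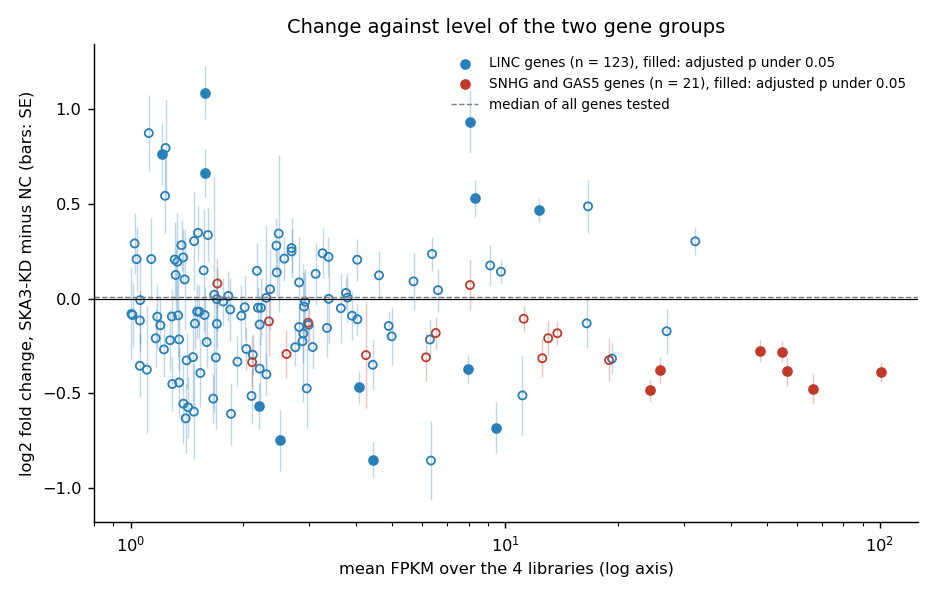
Log2 fold change (SKA3-KD minus NC, bars give the SE) against mean FPKM (log axis) of the 21 SNHG and GAS5 genes (red) and the 123 LINC genes (blue), with filled points where the limma adjusted p is under 0.05. The red points above 10 FPKM all lie below 0, while blue points lie on both sides at every level.

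By RefSeq positions, 10 host genes hold box C/D snoRNAs only, 7 box H/ACA snoRNAs only, 2 (GAS5 and SNHG12) both and 2 only a small Cajal body RNA. RefSeq positions were matched without regard to strand, and GENCODE 29 places no snoRNA gene inside GAS5. Lower calls were 5 of 10, 1 of 7, 1 of 2 and 0 of 2 in these classes, and the median log2 fold changes were -0.29, -0.21, -0.35 and -0.23. In each class all or all but 1 of the genes had a value below 0. GENCODE 29 also places the box H/ACA gene SNORA50C inside SNHG25, which is counted here as box C/D only, since its RefSeq span is shorter. Of all genes tested, 6.11% were called lower. Every called host gene was among the most abundant ones, so class was not separated from level. The difference between classes was not tested.

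The snoRNAs themselves were scarcely measured. Of the 135 snoRNAs positioned inside the host genes in RefSeq, 27 were rows of the table, 13 had a mean of 1 FPKM or more, and none had a mean of 20 reads. None passed the limma test, SNORA73B alone had an unadjusted p under 0.05, and voom called 0. The 2 snoRNAs with the most reads of each class are shown, from the GENCODE 29 transcripts (GRCh38). Capitals mark the ACA box, 3 bases from the 3′ end, in SNORA73B, and the C box (TGATGA) and D box (CTGA) in SNORD104.
SNORA73B (chr1:28508559-28508762, plus strand): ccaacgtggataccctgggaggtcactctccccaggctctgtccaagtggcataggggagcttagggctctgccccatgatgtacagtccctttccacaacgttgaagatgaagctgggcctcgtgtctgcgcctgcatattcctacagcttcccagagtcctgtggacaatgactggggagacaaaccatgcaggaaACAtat
SNORD104 (chr17:64146083-64146152, plus strand): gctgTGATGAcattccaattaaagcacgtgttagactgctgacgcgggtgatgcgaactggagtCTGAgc
SNORA73B, inside SNHG3, was covered by 23 and 20 reads in the NC libraries and 17 and 18 in the SKA3-KD libraries, or 9.42, 10.9, 8.19 and 7.48 FPKM (log2 fold change -0.33, SE 0.09, limma adjusted p = 0.0823). Both SKA3-KD libraries lay below both NC libraries, as for its host. SNORD104, inside SNHG25, had 4 or 6 reads in each library (-0.06, SE 0.23), and the groups overlapped. Reads over a snoRNA may also come from its unspliced host. Those over SNORA73B may also come from unspliced RCC1, which overlaps SNHG3 on the same strand and had a log2 fold change of 0.34. These sources cannot be told apart here.

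To place the SNHG genes among other hosts, the other annotated genes that hold a snoRNA on the same strand were counted, 159 in all. They were evenly split: 80 had a value below 0 and 79 above, and the median log2 fold change was 0.00. Limma called 14 lower and 9 higher, beside 6.11% and 6.16% of all genes tested. Split by product, all 27 ribosomal protein genes among these hosts were below 0, with a median of -0.18. Limma called 3 of them lower and voom 18, beside 12.6% of all genes called lower by voom. Of the 121 other protein-coding hosts, 46 were below 0 (median 0.05, 8 lower and 9 higher by limma). The 11 noncoding ones had a median of -0.17, with 3 lower calls (ENSG00000270066, EPB41L4A-AS1 and RPL32P3). Over all 82 cytosolic ribosomal protein genes tested, hosts or not, 77 were below 0, the median was -0.19, and limma called 11 lower and 1, the paralog RPL39L, higher, while voom called 47 lower and 2 higher. The SNHG genes therefore had a median nearer to that of ribosomal protein genes than to that of other coding hosts, a difference described here and not tested.

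**Figure D3:**
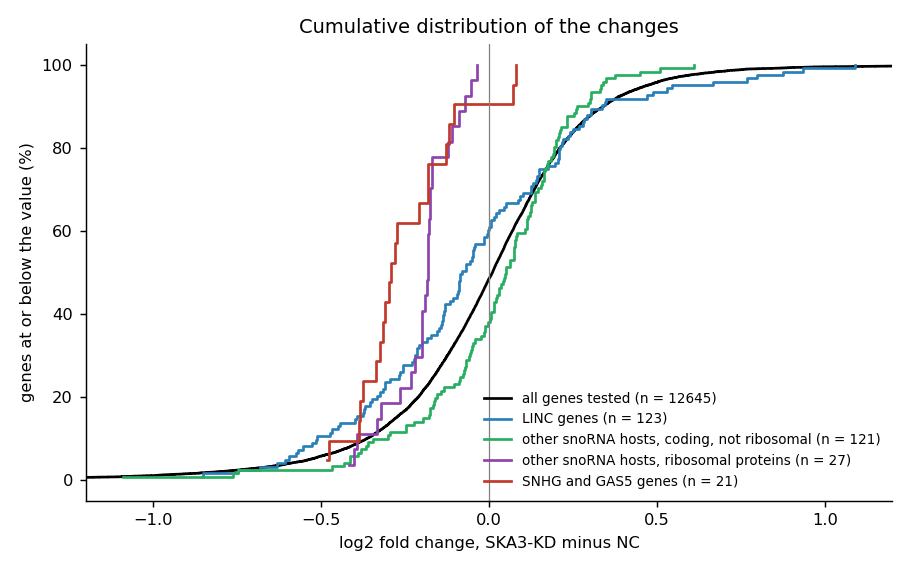
Share of genes (%) at or below each log2 fold change (SKA3-KD minus NC) for all 12645 genes tested, 123 LINC genes, 121 coding and 27 ribosomal protein snoRNA hosts, and 21 SNHG and GAS5 genes, shown from -1.2 to 1.2. The curves of the SNHG and ribosomal protein hosts rise left of 0, with medians of -0.29 and -0.18, while the other coding hosts have a median of 0.05.

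Among the other hosts past the test, the largest falls were those of NUCKS1, a chromatin protein, from 105 and 96.2 FPKM to 48.6 and 44.8 (log2 fold change -1.09), ENSG00000270066 (-0.79) and UBAP2 (-0.76). ENSG00000270066 rests on 3 to 10 reads a library and was not called by voom (adjusted p = 0.120). HSPA8, the constitutive HSP70 chaperone and a classic snoRNA host, rose from 318 and 301 FPKM to 452 and 429 (0.51), followed by the importin gene KPNA4 (0.45) and the microtubule polymerase gene CKAP5 (0.38). RPS13 (-0.42), RPL23 (-0.40) and RPL13A (-0.27) were the ribosomal protein hosts called lower. All of these adjusted p-values, by limma with Benjamini-Hochberg adjustment, lay between 0.00806 and 0.0428, and the groups did not overlap.

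Of the 8 core proteins that bind snoRNAs, 1 passed the test, beside 12.3% of all genes tested. None of the 4 box C/D core proteins passed the limma test (NOP56 was higher at an unadjusted p under 0.05, and voom called 0): the methyltransferase FBL was at 109 and 106 FPKM in NC and 109 and 108 in SKA3-KD, and NOP58, NOP56 and SNU13 had log2 fold changes of 0.06, 0.16 and -0.12. Of the 4 box H/ACA core proteins, NHP2 was lower, at 38.6 and 38.8 against 32.2 and 31.6 (-0.27, SE 0.05, limma adjusted p = 0.0410). The pseudouridine synthase DKC1 was at 48.0 and 47.4 against 56.2 and 53.3 (0.19, limma adjusted p = 0.0929) and was called higher by voom (adjusted p = 0.0389). GAR1 had a value of 0.25, with an unadjusted p under 0.05 like DKC1 and no call by voom, and NOP10 of -0.13. None of 11 snoRNP assembly factors passed the limma test, and only ZNHIT6 (lower) and RUVBL1 (higher) had an unadjusted p under 0.05 and were called by voom.

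Of 18 nonsense-mediated decay genes, which act on the exons of host transcripts, limma called 1 lower and 2 higher, with a median of 0.07. At an unadjusted p under 0.05, 2 were lower and 6 higher, and voom called 1 lower and 6 higher. The shares over all genes were 6.11% lower and 6.16% higher by limma, and 12.6% and 14.2% by voom. DCP2, the decapping enzyme, fell from 4.35 and 3.79 FPKM to 2.16 and 2.39 (log2 fold change -0.63, limma adjusted p = 0.0284). SMG9, a regulator of the SMG1 kinase, rose from 6.06 and 6.93 to 9.19 and 9.67 (0.48, limma adjusted p = 0.0326), and MAGOH, of the exon junction complex, from 30.8 and 28.4 to 38.3 and 38.5 (0.37, limma adjusted p = 0.0316). The helicase UPF1 was at 18.6 and 20.1 against 23.4 and 24.4 (0.29, limma adjusted p = 0.0549) and was called higher by voom (adjusted p = 0.00243).

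Among 16 regulators of TOP mRNAs, MTOR was higher, from 9.70 and 10.5 FPKM to 15.7 and 16.4 (log2 fold change 0.62, limma adjusted p = 0.0146), and EIF4EBP2, an inhibitor of cap-dependent translation that mTOR switches off, was lower, from 16.6 and 16.9 to 11.7 and 10.6 (-0.55, limma adjusted p = 0.0186). The other 14 did not pass the test and the median was 0.05. Of 17 TOP genes outside the ribosome, 12 were below 0 (median -0.09). Limma called 4 lower and 0 higher, beside 6.11% and 6.16% of all genes tested. PABPC1 alone was higher at an unadjusted p under 0.05, and voom called 0 higher. The 4 called lower were HNRNPA1 (-0.51), EIF4B (-0.36), EEF1A1 (-0.29) and EIF3L (-0.28), with limma adjusted p-values from 0.0174 to 0.0379.

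Within the host genes, the 4 with the pyrimidine tract at the annotated start had a median log2 fold change of -0.31 and 2 lower calls, and the 13 with a sequence but no such tract had a median of -0.21 and 4 lower calls. Over all genes tested, 6.11% were called lower. The median FPKM was 33.7 with the tract and 11.2 without it, so the tract was not separated from level. The difference between these sets was not tested. SNHG1, without the tract at that base, and SNHG19, which has it, had the same log2 fold change to 2 decimals, -0.48.

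Host genes often share their locus with a coding gene. Of the 21, 12 overlap another annotated gene, 9 of them on the opposite strand, and the use of strand in the counting is not given in the sources used here, so their reads could be split or shared. In 7 pairs a protein-coding gene that was also tested starts within 5 kb of the host gene, and 5 of these 7 neighbours had a value above 0. RCC1, the nuclear exchange factor for RAN, starts 37 bases from SNHG3 on the same strand and overlaps it. It was higher in SKA3-KD cells, at 37.1 and 38.2 FPKM in NC and 48.1 and 47.7 in SKA3-KD (log2 fold change 0.34, SE 0.05, limma adjusted p = 0.0265), while SNHG3 had a value of -0.32. SLC3A2, which starts 188 bases from SNHG1 on the other strand, had a value of -0.14 (limma adjusted p = 0.186), TRAF7 beside SNHG19 of 0.17, ZBTB37 beside GAS5 of 0.28, and RPS2 beside SNHG9 of -0.03. SEC14L1 beside SNHG20 and GLRX5 beside SNHG10 were at 0.08 and 0.03. UBE3A, the ubiquitin ligase gene that lies antisense to SNHG14, was higher (0.32, limma adjusted p = 0.0364).

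The LINC genes were split between both directions. Of 123, 75 had a log2 fold change below 0 and 48 above, and the median was -0.08. Limma called 6 lower and 6 higher, or 4.88% lower, beside 6.11% lower and 6.16% higher among all genes tested. In 46 both SKA3-KD libraries lay below both NC libraries, beside 29.2% of all genes, and in 26 above, beside 32.3% of all genes. Voom on the recovered reads called 12 lower and 8 higher, beside 12.6% lower and 14.2% higher among all genes by that test. Over the 18 LINC genes at a mean of 5 FPKM or more the median was 0.069. Against the NC mean, the medians of the 2 SKA3-KD libraries were -0.16 and -0.05. Most were low: the median of their mean FPKM was 2.12, and 35 of the 123 had a mean under 20 reads. Since membership needs a mean FPKM of 1 over all 4 libraries, 9 LINC genes entered with an NC mean under 1 and 10 with an SKA3-KD mean under 1. LINC01537, LINC02043 and LINC02976, all called higher, are among those 9, so they passed the filter only through their SKA3-KD values. Each LINC gene called lower had an SKA3-KD mean above 1, so the balance of the calls depends partly on the filter. Together the 123 genes took 1142 and 1173 reads per 1000000 in NC against 1042 and 1101 in SKA3-KD, 92.6% of the NC mean.

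Among LINC genes that averaged 20 or more reads and did not overlap between groups, LINC01537, LINC02104 and LINC02043 had the largest rises. LINC01537 was at 0.72 and 0.59 FPKM in NC and at 2.37 and 2.66 in SKA3-KD, 3.86 times the NC mean (log2 fold change of FPKM + 1 1.09, SE 0.14, limma adjusted p = 0.0184). LINC02104 was at 6.28 and 4.26 against 11.3 and 10.3 (0.93, SE 0.17, limma adjusted p = 0.0319). LINC02043 was at 0.96 and 1.03 against 2.15 and 2.18 (0.66, SE 0.13, limma adjusted p = 0.0375). LINC01537 and LINC02043 are among the genes with an NC mean under 1.

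LINC00707 rose from 6.15 and 7.08 FPKM to 10.6 and 9.36 (log2 fold change 0.53, SE 0.10, limma adjusted p = 0.0356), and LINC03057 from 9.95 and 10.4 to 14.1 and 14.8 (0.47, SE 0.07, limma adjusted p = 0.0209). The last of the 6, LINC02976, was at 0.67 and 0.60 against 1.58 and 1.99 (0.77, SE 0.16, limma adjusted p = 0.0462) and rests on a mean of 19.8 reads. It too is among the genes with an NC mean under 1. LINC03057 and LINC00707 were measured with 212 and 273 reads on average, more than the other 4.

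The largest falls by the same rule were those of LINC01133, LINC01003 and LINC01004. LINC01003 was the largest of them past the test, from 6.40 and 5.60 FPKM in NC to 3.01 and 2.74 in SKA3-KD, 47.9% of the NC mean (log2 fold change -0.85, SE 0.10, limma adjusted p = 0.0149). LINC01133 had a similar value (-0.85, SE 0.21) but its SKA3-KD libraries stood apart, at 5.36 and 3.21 against 7.66 and 9.11 in NC, and it did not pass (limma adjusted p = 0.0622), though voom called it (adjusted p = 0.00134). LINC01004, which starts 1135 bases from the histone methyltransferase family gene KMT2E on the other strand, fell from 2.81 and 4.02 to 1.56 and 1.65 (-0.75, SE 0.16, limma adjusted p = 0.0469). KMT2E itself had a value of -0.17 (limma adjusted p = 0.241).

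The other 4 falls past the test were LINC03078, LINC00313, LINC02693 and LINC02982. LINC03078 was at 10.8 and 12.9 FPKM in NC and 6.20 and 7.89 in SKA3-KD (log2 fold change -0.68, SE 0.14, limma adjusted p = 0.0398) and was not called by voom (adjusted p = 0.102). LINC00313 was at 2.90 and 2.75 against 1.41 and 1.77 (-0.57, SE 0.12, limma adjusted p = 0.0484). LINC02693, annotated as protein-coding in GENCODE 29, was at 4.92 and 4.84 against 3.43 and 3.08 (-0.47, SE 0.09, limma adjusted p = 0.0344). LINC02982 was at 9.34 and 8.86 against 7.05 and 6.55 (-0.37, SE 0.07, limma adjusted p = 0.0393) and was the best sampled of the 6 falls, with 297 reads on average.

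**Figure D4:**
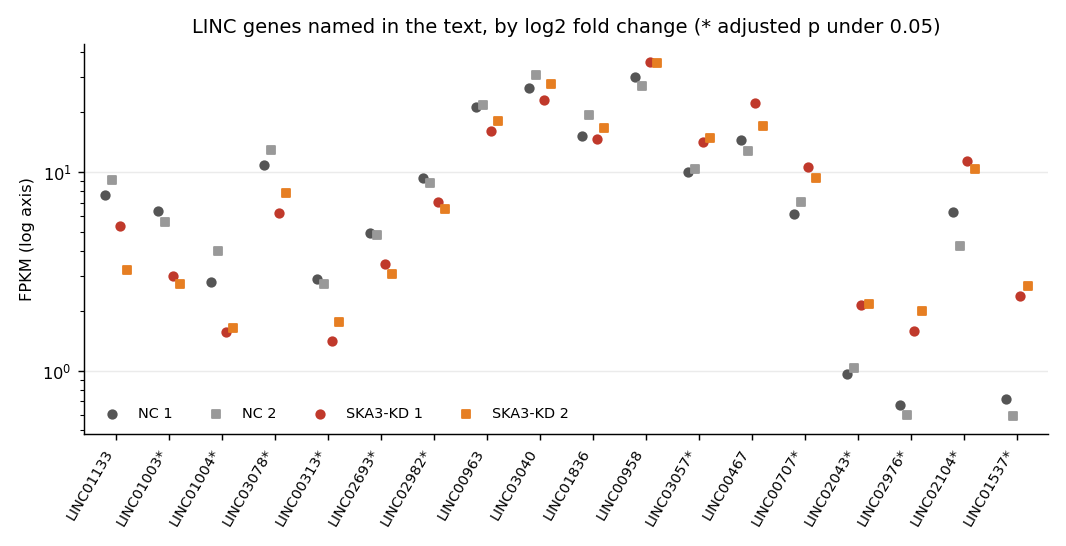
FPKM (log axis) of the 18 LINC genes described here in each library (grey NC, red and orange SKA3-KD), ordered from the largest fall to the largest rise, with an asterisk where the limma adjusted p is under 0.05. The 12 marked genes show no overlap between groups, and 3 of those that rose, LINC02043, LINC02976 and LINC01537, start near or below 1 FPKM in NC.

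None of the 5 most abundant LINC genes passed the test. LINC00958 was the highest, at 30.2 and 27.2 FPKM in NC and 35.9 and 35.3 in SKA3-KD (log2 fold change 0.30, SE 0.07, limma adjusted p = 0.0569), without overlap and called by voom (adjusted p = 0.0102). LINC00963, with the most reads of the named LINC genes, was at 21.1 and 21.8 against 16.0 and 18.2 (-0.32, SE 0.08, limma adjusted p = 0.0660), and LINC00467 at 14.5 and 12.8 against 22.3 and 17.0 (0.49, SE 0.14, limma adjusted p = 0.0869). LINC03040, annotated as protein-coding in GENCODE 29, and LINC01836 had values of -0.17 and -0.13 with overlapping groups. With NC 1, NC 2 or SKA3-KD 1 left out, limma called 0 LINC genes, and with SKA3-KD 2 left out it called 1 lower (LINC01186) and 0 higher. LINC01186 was at 13.6 and 12.6 FPKM in NC and 6.91 and 11.4 in SKA3-KD (limma adjusted p = 0.183 with all 4 libraries).

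LINC genes also share loci. Of the 123, 45 overlap another annotated gene, 39 of them on the opposite strand. In 18 pairs with a tested protein-coding gene that starts within 5 kb, 9 had values of the same sign in LINC gene and neighbour, and a single neighbour was called. SAMD11, which starts 2912 bases from LINC02593, was lower (log2 fold change -0.52, SE 0.08, limma adjusted p = 0.0238), with LINC02593 at -0.40 (limma adjusted p = 0.0860).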

How the data were processed

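RNA of TU-177 cells was sequenced as 4 libraries (2 NC, 2 SKA3-KD). The authors deposited FPKM values per gene (reads scaled to exon length and library size) for 28729 Ensembl identifiers. The submitters' processing notes name hg19, Bowtie2 2.2.8, HISAT2, StringTie 1.3.1 and Cuffdiff 2.1.1, with no order. The labels describe shRNA, while the study's methods also describe other means of knockdown. Symbols came from a gene name table (27043 identifiers matched), and positions and exon lengths from GENCODE 29 (GRCh38), a different build, by identifier. With GENCODE symbols instead, members numbered 18 and 98.

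limma 3.58.1 (R 4.3.3, lmFit, eBayes with trend) was run on log2(FPKM + 1) over the 12645 genes whose mean FPKM was 1 or more, Benjamini-Hochberg adjusted at 0.05. Fold changes on this scale understate those of low genes. Whole reads were recovered from the FPKM steps with the GENCODE exon length for 61.4% of these genes (tolerance 0.02) and another length for 35.4% (0.01). They served limma voom, which called 1547 lower and 1741 higher. No table column was left unmapped. On simulated data (12061 genes), limma recovered 5 of 98 genes changed 1.5-fold and 67 of 98 changed 2-fold, with 6 false calls. The simulation assumed 1 fixed spread between replicates and changed far fewer genes than the 1551 called in the data. Its recovery and false calls therefore do not measure those of the real test. Exact permutation of 2 against 2 libraries cannot go below p = 0.333. Replicates differed beyond sampling noise (chi-square per degree of freedom 3.65 in NC, 3.63 in SKA3-KD).

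Members, lists and tests were chosen with earlier results of these data known. The lists were box C/D and H/ACA core proteins, snoRNP assembly, decay, TOP regulators and genes, other long noncoding RNAs, neighbours and cell type markers. Every host gene is named; of LINC genes, those past the threshold, the 5 most abundant, and the 3 largest falls and rises without overlap and with at least 20 reads; of lists, core proteins and members past the threshold; of other hosts, the 3 largest falls and rises. UPF1, UBE3A, ZNHIT6, RUVBL1, PABPC1, RPL39L, LINC01186 and the 2 snoRNAs were chosen after their values were seen. Python 3.11.15 (pandas 2.3.3, matplotlib 3.10.9) did the rest.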

Additional observations from a re-analysis of the deposited data

How the results depend on the processing

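Under the 8 to 10 alternatives that used all 4 libraries and kept the gene, no host gene, none of the 20 LINC genes given with a fold change and not SKA3 changed direction. Calls depended on the settings. Without the filter on low values (26504 genes), limma called 81 genes lower and 48 higher, 0 host genes, and 0 LINC genes in either direction. Without the trend it called 381 lower and 312 higher, 1 host gene (SNHG1), and 2 LINC genes lower. Voom called 1547 and 1741 genes and 12 LINC genes lower, with a host median of -0.35. The GC and length correction gave 1273 and 1346 genes and a host median of -0.23, and a pseudocount of 0.1 gave medians of -0.34 (host) and -0.13 (LINC). Requiring a mean of 20 reads, chosen after seeing the data, gave 1240 and 1312 genes and 13 LINC genes lower. The LINC median reversed to 0.069 with a mean FPKM of at least 5. The causes of these shifts were not tested. A fit with the replicate number as a block called 965 genes lower and 1002 higher, 8 host genes lower (SNHG5 added), and 6 LINC genes lower and 5 higher; same-numbered libraries deviated together with a correlation of 0.10 over 2 pairs, so the numbers were not taken as pairs.

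With each library left out in turn, the lone library is assumed to vary like the other group. Lower calls then ran from 0 to 135 and higher calls from 0 to 46 over all genes, host genes lower stayed at 0, and LINC genes ran from 0 to 1 lower and stayed at 0 higher. The host median ran from -0.31 to -0.20 and the LINC median from -0.16 to -0.049, the values furthest from the full fit being those without SKA3-KD 2. Directions turned for SNHG25 (0.13, range -0.73 to 0.13), SNHG17 (-0.092) and SNHG10 (0.032) without NC 1, SNHG17 (-0.0077, range -0.092 to 0.24) and SNHG10 (0.070) without SKA3-KD 2, and LINC01836 (0.033, range -0.29 to 0.033) without NC 2. Depth limits the low members: 2 host and 35 LINC genes had a mean under 20 reads.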

Other observations

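Long noncoding RNAs with other kinds of names moved in either direction. Of 19 tested from a fixed list, 2 were called lower and 3 higher by limma with Benjamini-Hochberg adjustment, beside 6.11% and 6.16% of all genes tested. The median log2 fold change of the 19 was -0.17. H19, the imprinted RNA beside IGF2 and the most abundant of them, was at 801 and 786 FPKM in NC and 527 and 608 in SKA3-KD (-0.49, limma adjusted p = 0.0283). EPB41L4A-AS1, itself a snoRNA host, fell from 7.25 and 6.83 to 5.17 and 5.22 (-0.38, limma adjusted p = 0.0366). CYTOR rose from 6.15 and 5.18 to 9.24 and 8.38 (0.56, limma adjusted p = 0.0330), its near-identical paralog MIR4435-2HG from 4.29 and 4.08 to 6.29 and 6.39 (0.50, limma adjusted p = 0.0222), and OIP5-AS1 from 11.8 and 11.5 to 15.7 and 14.3 (0.34, limma adjusted p = 0.0459). Reads of CYTOR and MIR4435-2HG may be split between the 2 genes, so their values are uncertain.

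The snoRNA hosts ZFAS1 and DANCR, whose symbols lie outside the SNHG series, had values near those of the SNHG genes. DANCR was at 24.7 and 27.7 FPKM in NC and 20.9 and 19.5 in SKA3-KD (-0.36, limma adjusted p = 0.0514), and ZFAS1 at 148 and 133 against 130 and 120 (-0.17, limma adjusted p = 0.214). Both had SKA3-KD libraries below the NC libraries, as did 29.2% of all genes tested, and both were chosen after their values were seen. Of the 11 noncoding snoRNA hosts outside the members, 7 had a value below 0 and 4 above.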
